A study of Arabidopsis thaliana with 12 samples.

Results

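The transcript response of rop10-1 mutant Arabidopsis seedlings to abscisic acid (ABA) was measured on 6 of the 12 ATH1 arrays of the series, 3 from rop10-1 seedlings given 1 µM ABA and 3 from rop10-1 seedlings given the solvent DMSO (mock). Members were chosen by the array titles, which also carry the replicate number, 1 to 3, that was used to pair an ABA array with a mock array. The other 6 arrays hold the same treatments of the wild type Ws, 3 with ABA and 3 mock. All seedlings grew for 7 days in shaken liquid MS medium with sucrose and were then treated for 4 h in liquid MS. The ATH1 is a 1-colour oligonucleotide array on which each transcript is read by a probe set, and the series' design text calls the 3 replicates of a group biological.

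The mutant is represented by 1 allele, rop10-1, and RNA came from whole seedlings, so each value averages over shoot and root. ROP10 encodes a small GTPase of plants known as a negative regulator of ABA responses. No probe set used here is named ROP10, so its own level was not analysed here and the labels were not checked against it. The deposited signals had a 2% trimmed mean of 500.04 to 500.048 on all 12 arrays. The median signal was 190.9 to 193 on the rop10-1 ABA arrays and 190.25 to 195 on the rop10-1 mock arrays. The 3' to 5' signal ratios of the ubiquitin, GAPDH and actin control probe sets overlapped between the 2 rop10-1 groups. Within the numbered pairs, the ABA array was below its mock partner in all 3 pairs for ubiquitin (log2 ratios of 0.88, 0.71 and 0.83 with ABA and 0.89, 0.84 and 0.92 in mock) and for GAPDH (-0.45, -0.50 and -0.53 with ABA and -0.41, -0.47 and -0.46 in mock), but not for actin (2.28, 2.60 and 2.24 with ABA and 2.10, 2.19 and 2.61 in mock). The part of these differences in the results was not tested.

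ABA is the plant hormone of water deficit and seed dormancy. It binds soluble PYR/PYL receptors, which then inhibit PP2C phosphatases and so release SnRK2 kinases; these phosphorylate bZIP transcription factors that bind ABA-responsive promoters. Well-known targets in vegetative tissue are late embryogenesis abundant (LEA) proteins and dehydrins, hydrophilic proteins that accumulate in drying cells and in seeds, while growth and cell wall loosening are restrained.

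Of 9 LEA and dehydrin genes on the array, 7 passed the filter on low signal and all 7 of those were called higher, with log2 fold changes of 1.17 to 6.41, against a median of -0.05 over all 15922 probe sets tested. For 3 of the 7, AT3G02480, LEA4-5 and AT3G17520, the mean of the rop10-1 mock arrays was itself under the filter, so they passed it through their ABA signal and the count of 7 is a description. The other 2 of the 9 had a mean under the filter and are named here after their values were seen. In the fit with no low filter, LEA18 had 98.4, 109 and 102 with ABA and 0.8, 0.9 and 2.1 in mock (log2 fold change 2.79, limma adjusted p = 6.97e-06), and the gene listed as LEA had 24.6, 34.4 and 26.7 against 24.9, 38.4 and 32.6 (-0.10, adjusted p = 0.805). The 7 genes that passed were the measured members of the list of known ABA-induced markers. Over all tested probe sets 8.11% were called higher and 7.51% lower, 15.6% in all, by limma at a Benjamini-Hochberg adjusted p under 0.05. The LEA gene AT3G02480 had signals of 2035, 2662 and 3701 on the rop10-1 ABA arrays, against 27.4, 3.6 and 23.3 on the mock arrays. It was near the bottom of the scale in every mock array and among the brighter genes in every ABA array, with a log2 fold change of 6.41 ± 0.25 (SE, n = 3 each, limma adjusted p = 5.52e-08). Because 16 was added to each signal before the log, the fold change of so dim a mock level depends on that constant and was 7.53 with 1 added and 5.10 with 64 added.

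LEA4-5, a second LEA protein gene, had signals of 1272, 1524 and 1336 with ABA and 16.9, 4.7 and 7.2 in mock, a log2 fold change of 5.79 ± 0.25 (limma adjusted p = 9.77e-08), which was 7.19 with 1 added and 4.29 with 64 added. The LEA gene AT3G17520 followed the same pattern at a lower level, with 263, 726 and 535 against 4.5, 15 and 21.1 (log2 fold change 4.08, 5.23 with 1 added and 2.80 with 64 added). The other members were already well above the floor in mock seedlings. COR15A, a chloroplast-targeted cold and drought protein, had 1642, 2783 and 2045 with ABA and 124, 310 and 214 in mock (log2 fold change 3.28 ± 0.16, adjusted p = 2.3e-07). Its neighbour on the chromosome and close relative COR15B had 251, 435 and 363 with ABA and 133, 160 and 137 in mock, a smaller change of 1.17 ± 0.19. The dehydrins LTI30 and COR47 were bright in both groups. COR47 reached 15093, 15086 and 10167 with ABA, against 6795, 6043 and 3921 in mock, a log2 fold change of 1.28 ± 0.12 in the brightest gene of the list. The 7 calls held without the replicate block and with each array left out in turn. COR15A and COR15B are tandem paralogs, and whether their probe sets share transcripts was not tested.

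**Figure D1:**
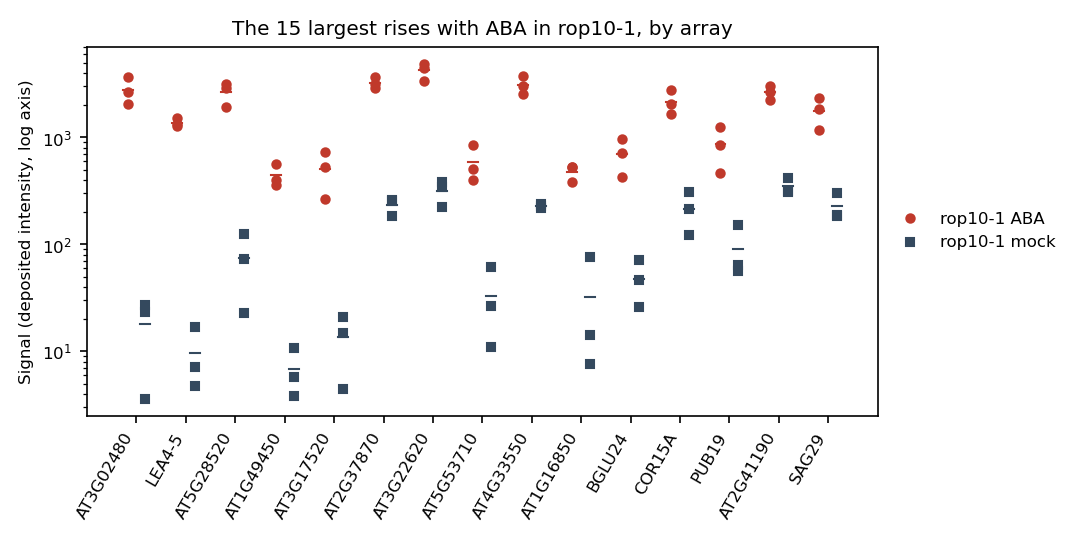
Signal (deposited intensity, log axis) of the 15 genes with the largest rises, with the 3 rop10-1 ABA arrays as circles left of the 3 rop10-1 mock arrays as squares and the mean as a bar. The arrays of the 2 groups do not overlap for any of the 15, as the naming rule required, and the mock arrays of AT3G02480, LEA4-5, AT1G49450 and AT3G17520 lie below 50.

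Genes for lipid-transfer-type proteins, small secreted proteins that carry or bind lipids at the cell surface, made up 4 of the 25 largest rises. AT4G33550 had 2551, 3058 and 3718 with ABA and 228, 218 and 241 in mock, the smallest adjusted p of the 25 largest rises (log2 fold change 3.66 ± 0.12, limma adjusted p = 1.12e-08). The arrays of each group were close to each other, and the lowest ABA array was far above the highest mock array. The rule by which the 25 were named required that the groups not overlap. AT3G22620 had 3383, 4494 and 4889 with ABA and 382, 222 and 348 in mock, a log2 fold change of 3.70. AT2G37870 rose by 3.72 and AT5G13900 by 2.66. These 4 were grouped after their values were seen, so their number is a description.

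Several large rises belonged to single genes of other families. AT5G28520, a jacalin-type lectin gene, had 3182, 2883 and 1929 with ABA and 126, 22.7 and 73.7 in mock (log2 fold change 5.05 ± 0.28). It lies beside BGLU24, a beta-glucosidase gene, which had 974, 712 and 426 against 71.1, 46.4 and 26.3 (3.48 ± 0.21). In both genes the ABA array numbered 1 was the highest and that numbered 3 the lowest. Every ABA array was above every mock array, as the naming rule required. PUB19, a U-box E3 ubiquitin ligase known from ABA and drought signalling, had 856, 1262 and 464 with ABA and 64.3, 154 and 56.9 in mock (3.03 ± 0.19). Array number 2 was the highest in both groups, and every ABA array was above every mock array, as the same rule required.

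SAG29, also named SWEET15, is a sugar carrier gene of senescing leaves and seeds. It had 1833, 2329 and 1186 with ABA and 186, 305 and 190 in mock (log2 fold change 2.87 ± 0.21, adjusted p = 3.7e-06). The chitinase-type gene listed as CHI had 2683, 898 and 1424 against 276, 144 and 208 (2.80 ± 0.17); its number 1 arrays were the highest in both groups. AT1G49450, a WD40-repeat protein gene, rose by 4.31 (2.82 with 64 added), and AT5G53710 and AT1G16850 by 3.68 and 3.6. The remaining members of the 25 largest rises were AT2G41190, an amino acid transporter family gene (2.87), AT5G07330 (2.81), AT1G05340 (2.73), AT1G54540 (2.71), the dehydrogenase-like AT1G09500 (2.60), the strictosidine synthase-like AT3G57010 (2.57), the class III peroxidase AT1G68850 (2.46), the hydrolase-like AT4G36610 (2.41) and AT4G24130 (2.31).

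All 25 largest rises had a limma adjusted p of at most 0.000128 and were still called with each array left out, the largest adjusted p being 0.00182. The gene just inside the limit of 25, AT4G24130, had a log2 fold change of 2.31 and the first outside it, ZW9, 2.30. The naming rule took only calls whose 3 ABA and 3 mock arrays did not overlap and whose 3 pairs differed in one direction, which 541 rising and 493 falling genes met. Over all tested probe sets, called or not, 27.9% did not overlap and 52.1% had all 3 pairs in one direction.

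The largest fall among named genes was that of AT4G21870, whose product belongs to the small heat shock proteins, with 218, 323 and 444 on the rop10-1 ABA arrays and 3861, 4595 and 4438 on the mock arrays. All ABA arrays lay far below all mock arrays, where the naming rule required no overlap. The log2 fold change of AT4G21870 was -3.70 ± 0.21 (limma adjusted p = 5.4e-07). It was the sole call among 7 measured genes of heat shock proteins and their factors. That is 14.3%, beside 15.6% of all tested probe sets and 14.1% of those assigned to 1 gene. The other 6 had log2 fold changes from -0.44 (Fes1B, limma adjusted p = 0.173) to 0.36 (HSA32, limma adjusted p = 0.136).

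Cell wall genes stood among the largest falls. AT1G26250, an extensin-like wall protein gene, had 91.6, 58.5 and 57.8 with ABA and 815, 704 and 465 in mock (log2 fold change -2.98 ± 0.29). AT5G62360, of the pectin methylesterase inhibitor family, had 19.4, 18.8 and 34.5 against 291, 318 and 236 (-2.90 ± 0.20, -3.53 with 1 added and -1.97 with 64 added), which brought it to the bottom of the signal scale in all 3 ABA arrays. AT5G63180, a pectin lyase-like gene, changed by -2.33, and the expansin EXPA8 had 36.3, 71 and 28.5 with ABA and 158, 338 and 252 in mock (-2.12 ± 0.33, -2.47 with 1 added and -1.50 with 64 added). Expansins loosen the wall during growth. Class III peroxidases, secreted enzymes that cross-link or loosen wall polymers, gave 4 of the 25 largest falls: AT5G19890 (-2.74), Prx37 (-2.37), AT4G08780 (-2.01) and AT3G03670 (-1.69). Prx37 had 391, 212 and 217 with ABA and 1722, 1202 and 1400 in mock, while AT5G19890 had 349, 83.9 and 83.8 against 1641, 1104 and 570. In both, the number 1 arrays were the highest of their group, and no ABA array reached a mock array, as the naming rule required. The grouping of these peroxidases was made after their values were seen, and 1 peroxidase, AT1G68850, stood among the rises. The peroxidase list held 3 measured genes, of which Prx37 was called lower, PRXR1 was not called (-0.09) and PRX52 was called higher (0.72, adjusted p = 0.0328). PRX52 had overlapping groups, 266, 69.7 and 76.2 with ABA and 122, 36.5 and 52.9 in mock, and missed the threshold without the block (0.503) and without rop10-1 ABA replicate 1 (0.149). Its mock mean was under the filter on low signal, so it passed through its ABA signal.

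**Figure D2:**
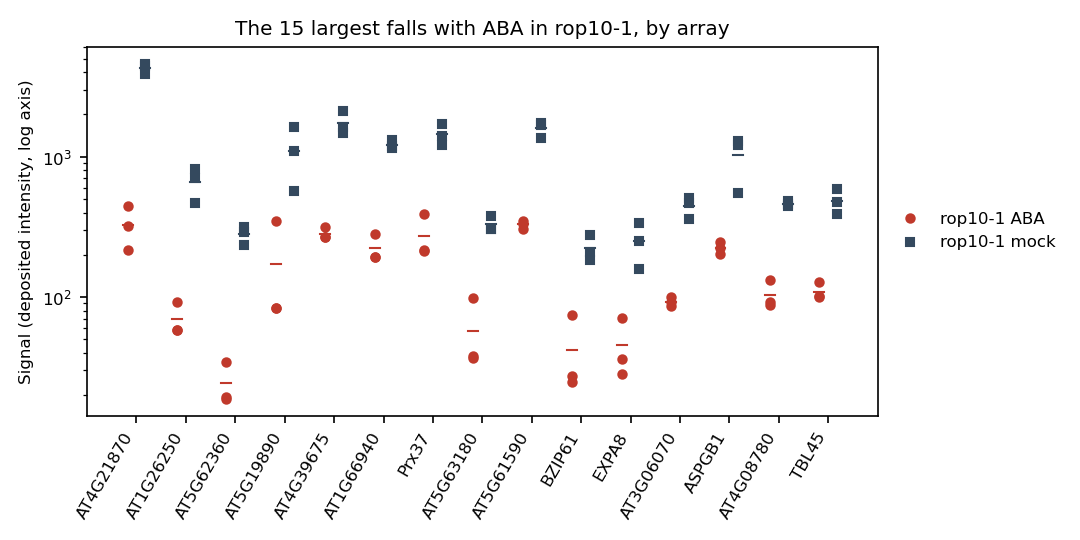
Signal (deposited intensity, log axis) of the 15 genes with the largest falls, with the 3 rop10-1 ABA arrays as circles left of the 3 rop10-1 mock arrays as squares and the mean as a bar. AT4G21870 lies between 218 and 444 with ABA and between 3861 and 4595 in mock, and the groups do not overlap for any of the 15, as the naming rule required.

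Regulators were also among the falls. AT5G61590, known as DEWAX, encodes an ERF-type repressor of cuticular wax synthesis. It had 350, 333 and 304 with ABA and 1680, 1358 and 1751 in mock, a log2 fold change of -2.22 ± 0.14 (limma adjusted p = 1.43e-06). BZIP61, a bZIP factor gene, had 24.7, 74.3 and 27.2 against 182, 276 and 209 (-2.12 ± 0.30). TINY, an AP2/ERF factor gene listed as tny, changed by -1.69. Both groups of 3 arrays were apart for all of these, as the naming rule required. Other genes of the 25 were AT4G39675 (-2.54), AT1G66940 (-2.39), AT3G06070 (-2.07), the asparaginase gene ASPGB1 (-2.02), TBL45 (-1.98), the glutaredoxin AT4G15690 (-1.97), the acyltransferase AT4G15390 (-1.94), AT5G14120 of the major facilitator family (-1.83), AT5G28630 (-1.77), the berberine-bridge-type oxidase AT1G30760 (-1.74), AT5G48430 (-1.74), AT3G01260 (-1.66) and the methionine sulfoxide reductase MSRB6 (-1.60). The adjusted p of the 25 was at most 0.00413, and at most 0.0309 with any array left out. Without the replicate block 24 of the 25 were called, AT1G30760 being the exception with an adjusted p of 0.0712. The first gene outside the limit, AT1G22570, had a log2 fold change of -1.59.

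The 8 genes with the highest mean signal among those that rose at least 2-fold were AT3G22620, LTI30 (7239, 7404 and 4968 with ABA, 2003, 1978 and 1193 in mock, log2 fold change 1.93), the stress-related AT5G61820 (1.76), AT4G30470 (1.40), COR47 (1.28), the turgor-responsive aldehyde dehydrogenase ALDH7B4 (1.11), AT2G26690 of the nitrate and peptide transporter family (1.08) and AT5G42050 (1.01). ALDH7B4 was not called without the block (adjusted p = 0.0621). The corresponding 8 falls included AT4G21870 and AT5G14120. AT5G14120 had 1611, 1559 and 2206 with ABA and 6207, 6012 and 6765 in mock. AT2G45180, a lipid-transfer-type gene, had 6165, 3267 and 3804 against 13558, 12477 and 11577, a log2 fold change of -1.55 ± 0.18. Lipid-transfer-type genes therefore stood among both the largest rises and the abundant falls. The other abundant falls were AT3G22240 (-1.54), AT3G15630 (-1.46), the defensin-like AT4G22212 (-1.29), the acid phosphatase-type AT5G44020 (-1.16) and the aspartyl protease-type AT5G19120 (-1.07). Of these, AT3G22240, AT4G22212 and AT5G19120 were not called without the block (adjusted p = 0.0626, 0.0551 and 0.255), and AT4G22212 was not called without rop10-1 mock replicate 1 (0.0561). Here and below, an array named as left out is the one of the 12 whose removal gave the largest adjusted p of that gene.

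Over all probe sets, 2486 were called, 1291 higher and 1195 lower. The split between the directions depended on the settings, and was 641 higher and 400 lower without the block, 826 and 577 without rop10-1 mock replicate 1, and 724 and 404 without all arrays numbered 3. Of the higher calls, 102 had a mock mean under the filter on low signal, and of the lower calls 58 had an ABA mean under it. Such probe sets passed the filter through the group where they were high, so counts that hold them are a description. At least 2-fold changes were seen for 439 higher (2.76%) and 181 lower probe sets (1.14%), 3.89% of those tested in all, and at least 8-fold changes for 32 higher and 4 lower. The median log2 fold change was 0.81 among higher calls and -0.61 among lower calls. The probe sets that rose at least 2-fold had a median signal of 674.6 with ABA and 196.7 in mock, and those that fell at least 2-fold had 176.9 with ABA and 524.1 in mock. Over all tested probe sets the medians were 367.1 with ABA and 366.4 in mock, so the rising probe sets had a lower median than that in mock and the falling ones a higher one. Of the 103 calls that rose at least 4-fold, 13 had all 3 mock arrays below 50, while 33 had a mock mean of at least 200, so large rises started from both dim and well-measured mock levels. As RNA was taken from whole seedlings, more or fewer cells of a type and more or less RNA per cell cannot be told apart. Of the calls, 1228 were probe sets assigned to 1 gene, 41 to several and 1217 to none in the annotation used, so nearly as many calls are without a gene name as with 1. The largest fall of all tested probe sets was that of a probe set with no gene listed, 263836_at, with 4.4, 8.9 and 10.1 with ABA and 620, 733 and 943 in mock (log2 fold change -5.02 ± 0.21, limma adjusted p = 9.77e-08). The largest rise of a probe set with no gene listed was that of 247718_at, with 6463, 3278 and 5962 against 226, 10.8 and 26.4 (6.27 ± 0.70).

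**Figure D3:**
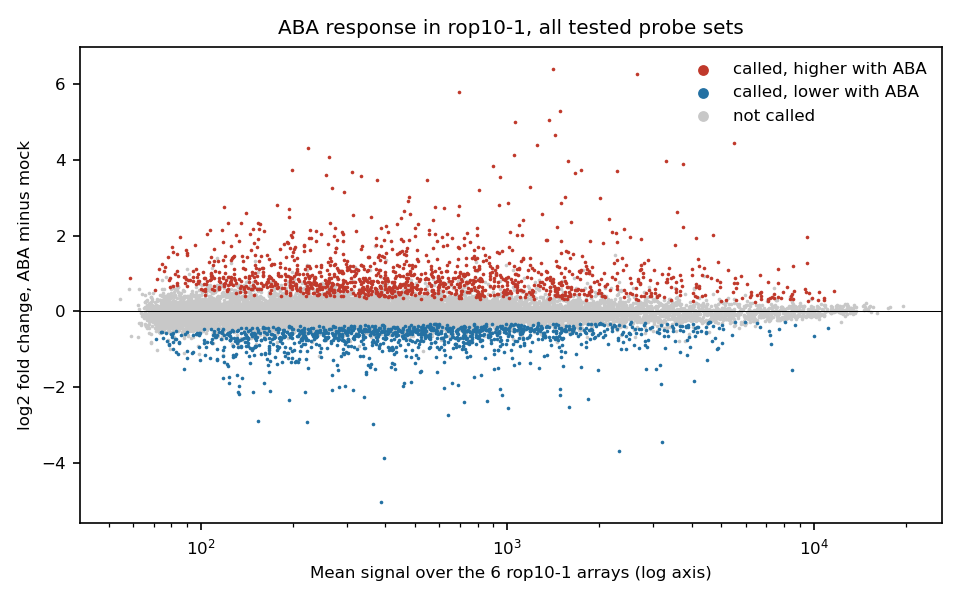
Log2 fold change (rop10-1 ABA minus rop10-1 mock) of each of the 15922 tested probe sets against its mean signal over the 6 rop10-1 arrays (log axis), with 1291 higher calls in red, 1195 lower calls in blue and probe sets that were not called in grey. The upper side reaches further from 0, with 32 higher and 4 lower calls of at least 8-fold.

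The 3 numbered pairs of rop10-1 arrays gave similar spreads. The log2 difference between the ABA and the mock array had an SD over probe sets of 0.517, 0.540 and 0.533 in pairs 1, 2 and 3, and 516, 546 and 614 probe sets were at least 2-fold higher. All arrays of one number were also left out of the fit, and the calls of the remaining arrays were read in the left-out rop10-1 pair, an alternative chosen after the data had been seen. Of the calls made without number 1, 904 of 916 higher ones (98.7%) and 624 of 640 lower ones (97.5%) differed in the same direction in pair 1. The shares were 95.9% and 95.9% for pair 2 and 99.4% and 98.8% for pair 3. Over all tested probe sets the share with the same direction was 67.9% to 72.9%. The median log2 difference of the higher calls was 0.85 in left-out pair 1, against 0.99 in the other arrays, 0.97 against 1.03 for pair 2 and 1.05 against 1.08 for pair 3. That of the lower calls was -0.72 against -0.80, -0.59 against -0.82 and -0.86 against -0.95, so all 6 medians were nearer 0 in the pair left out.

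Without the replicate block 1041 probe sets (6.54%) were called, all of them among the 2486. Of those 1041, 641 were higher and 400 lower. The changes of at least 2-fold depended less on it, with 488 calls without the block.

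Counts of calls in the gene lists here and below stand beside 15.6% called over all tested probe sets, 8.11% higher and 7.51% lower. Among probe sets assigned to 1 gene, the kind that the lists hold, 14.1% were called. A list count near those shares is no result about the list. Genes known to act in the ABA pathway upstream of these changes were sparsely named. No PYR/PYL receptor, PP2C or SnRK2 gene of the lists was named on the array in the annotation used, so the core of the pathway was not analysed here. UGT71B6, which glucosylates ABA, had 158, 82.4 and 80.7 with ABA and 86.6, 59.9 and 34.4 in mock, groups that overlap (log2 fold change 0.69, adjusted p = 0.0123). It was not called without the block (0.273) or without rop10-1 mock replicate 3 (0.0692). The mock mean of UGT71B6 was under the filter on low signal, so it passed through its ABA signal. UGT71C5, a second ABA glucosyltransferase, had 293, 287 and 355 against 436, 422 and 405 (-0.42, adjusted p = 0.0354) and was not called without the block (0.0642), without rop10-1 ABA replicate 2 (0.15) or in further fits with an array left out. The bZIP factor EEL, which binds ABA-responsive elements, had a log2 fold change of -0.14 and was not called.

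Of 10 measured bZIP factors, bZIP58 was higher (0.71, limma adjusted p = 0.114 without the block) and BZIP61 lower, 20.0% of the list beside 15.6% of all tested probe sets. The ABA mean of BZIP61 was under the filter on low signal, so it passed through its mock signal. Among 8 bHLH factors 2 were lower. SPEECHLESS (SPCH), which starts the stomatal cell lineage, had 44.6, 64.2 and 51.7 with ABA and 139, 129 and 113 in mock, with no overlap and a log2 fold change of -1.05 ± 0.20 (limma adjusted p = 0.00432). The ABA mean of SPCH was under the filter on low signal, so it passed through its mock signal. FMA, which acts at the end of the same lineage, had a log2 fold change of -0.04 and was not called. The second, bHLH121, changed by -0.43 and was not called without the block (0.0641) or without rop10-1 ABA replicate 3 (0.102), among other arrays. Of 5 WRKY factors 1 (20.0%), WRKY47, was called lower (-0.43), with groups that overlap. It had a limma adjusted p of 0.246 without the block and 0.194 without rop10-1 ABA replicate 2. WRKY6 (0.80, adjusted p = 0.0922) and WRKY53 (0.76, adjusted p = 0.131) were not called. The linker histone HIS1-3, known to be induced by drought and ABA, had 211, 270 and 231 with ABA and 59.6, 81.6 and 87.3 in mock (1.47 ± 0.20, limma adjusted p = 0.000397). It was the sole call among 5 histones (20.0%).

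Cell wall lists held changes in both directions. Of 19 measured expansins and xyloglucan enzymes of 27 on the array, 3 rose and 6 fell, 47.4% of the measured, with a median of -0.01. Of the 6 falls, 1 had an ABA mean under the filter on low signal. EXPA16 had 491, 518 and 583 with ABA and 120, 114 and 96.1 in mock, a log2 fold change of 2.12 ± 0.15 (adjusted p = 2.37e-06), whereas EXPA8 was called lower. EXPA4 rose by 1.29 ± 0.16, with 1326, 1162 and 1225 against 633, 403 and 480. EXPB3 (-0.85) and EXPA9 (-0.52) fell with the xyloglucan enzymes XTH33 (-1.17), XTH16 (-0.67) and XTH20 (-0.66). Of the 9 calls, 7 held without the block and 6 with each array left out. EXLB1 (0.97) and XTH20 missed the threshold without the block (adjusted p = 0.0618 and 0.074). XTH33 and EXPA9 missed it without rop10-1 mock replicate 1 (0.107) and rop10-1 ABA replicate 1 (0.105), and XTH16 without rop10-1 mock replicate 3 (0.0877).

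Of 20 measured pectin and wall acetylation genes 5 were called lower and 1 higher, with a median of -0.05. Of the 5 falls, 1 had an ABA mean under the filter on low signal, so it passed through its mock signal. TBL45, of a family of wall polysaccharide acetyltransferases, had 127, 101 and 99.5 with ABA and 388, 584 and 475 in mock (-1.98 ± 0.20, limma adjusted p = 4.35e-05). TBL36 had 155, 130 and 129 against 380, 252 and 280 (-1.04 ± 0.13). The pectin methylesterase ATPMEPCRD changed by -1.28 (adjusted p = 0.0531 without the block), while its relative ATPMEPCRB was called higher (0.74) with groups that overlap, and not without the block (0.262) or without rop10-1 ABA replicate 1 (0.165). TBL28 (-0.71) and TBL34 (-0.53) missed the threshold without rop10-1 ABA replicate 3 (0.118 and 0.19). Of the 6 calls, 3 held without the block. Of 11 genes of cellulose-like glycans and lignin 3 fell and 0 rose by limma, and all 3 held without the block: UGT72E1, a glucosyltransferase of lignin precursors (-1.22), the mannan synthase family gene CSLA03 (-1.13) and the xyloglucan backbone synthase gene CSLC04 (-0.73). CSLA03 had 180, 181 and 169 with ABA and 444, 396 and 383 in mock.

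**Figure D4:**
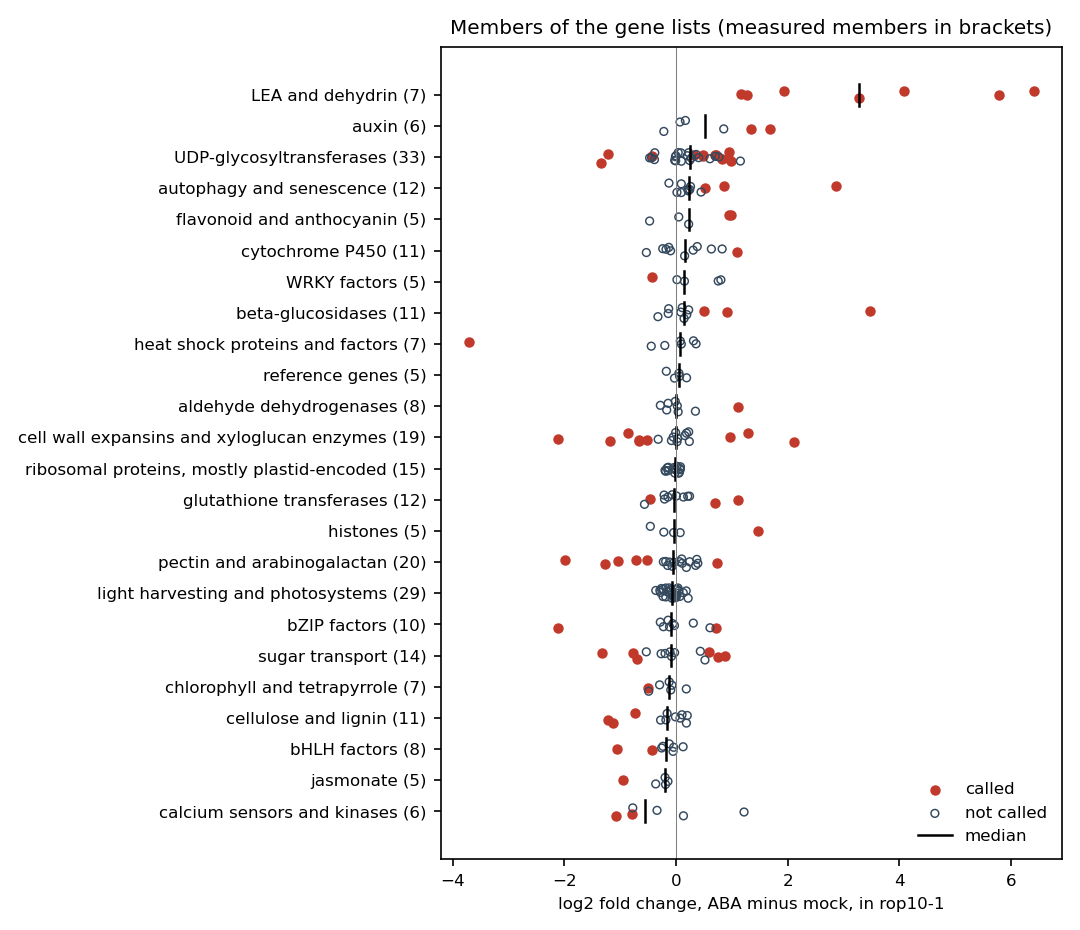
Log2 fold change (rop10-1 ABA minus rop10-1 mock) of each measured member of the gene lists with at least 5 measured members, with filled points for called members, open points for members not called and a black bar for the list's median. The 7 LEA and dehydrin genes that passed the filter on low signal are filled and above 0, expansins spread from -2.12 to 2.12, and the 29 light harvesting and photosystem genes are open and lie between -0.36 and 0.22.

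Sugar carriers changed in both directions as well. Of 14 measured in the sugar transport list, 3 rose and 3 fell, with a median of -0.09. SAG29, also a sugar carrier, stood in the senescence list and rose by more than any of the 14. The vacuolar carriers TMT1 and TMT2 changed in opposite directions: TMT2 had 482, 762 and 614 with ABA and 332, 362 and 364 in mock (0.76 ± 0.15, adjusted p = 0.00594), and TMT1 had 880, 1150 and 1122 against 1546, 1826 and 1716 (-0.69 ± 0.10, adjusted p = 0.000507). SWEET13, a plasma membrane sucrose carrier, rose by 0.87, and the vacuolar SWEET16 had 122, 98.8 and 113 with ABA and 342, 284 and 285 in mock (-1.33 ± 0.22). SWEET3 (0.60, groups overlapping) and SWEET2 (-0.77) were not called without the block (0.229 and 0.14). SWEET3 also missed the threshold without rop10-1 mock replicate 3 (0.169), and SWEET2 without rop10-1 mock replicate 1 (0.138).

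Of 6 measured auxin genes 2 were called higher, both for auxin-conjugating enzymes. WES1 (GH3.5) had 1601, 1068 and 1170 with ABA and 393, 429 and 334 in mock (1.68 ± 0.13, adjusted p = 6.84e-06), and GH3.17 had 664, 474 and 538 against 212, 189 and 225 (1.35 ± 0.17, adjusted p = 0.000209). GH3.3, of the same family, had a log2 fold change of 0.86 and was not called (adjusted p = 0.112). The jasmonate list held 5 measured genes, of which PDF1A and PDF1B encode peptide deformylases and PDF1.2, PDF1.2b and PDF1.4 encode defensins. PDF1.4 was the sole call of the list, lower by limma (-0.95). Its groups overlap, with 723, 153 and 270 with ABA and 1377, 354 and 481 in mock. Its number 1 arrays were the highest in both groups, and it was not called without the block (0.571). The gibberellin receptors GID1A, GID1B and GID1C were not called, 2 of the 3 having an unadjusted p under 0.05.

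UDP-glycosyltransferases, which attach sugars to hormones and secondary metabolites, gave 9 rises and 3 falls among 33 measured, with a median of 0.25. In 1 of the 9 rises the mock mean was under the filter on low signal. Of these 12 calls, 4 held without the block and 6 with each array left out. UGT84A4 (0.82) and UGT85A4 (-1.35 ± 0.16) held in both ways, and UGT85A4 had 110, 98.6 and 79.7 with ABA and 329, 260 and 223 in mock. Of 11 beta-glucosidases 3 were called higher, 1 of them with a mock mean under the filter on low signal. BGLU24 alone held without the block. BGLU45 (0.91) and BGLU16 (0.50) had limma adjusted p of 0.184 and 0.163 there. They also missed the threshold with an array left out, with largest values of 0.0729 without rop10-1 mock replicate 1 and 0.07 without rop10-1 mock replicate 3. CYP71B28 (1.1 ± 0.16) was the sole call of 11 cytochrome P450 genes. The glutathione transferases GSTU15 (1.11), GSTU16 (0.70) and GSTU27 (-0.47) were 3 calls of 12, and 0 of them held without the block (adjusted p = 0.0517, 0.105 and 0.29); GSTU15 and GSTU27 also missed it without rop10-1 mock replicate 1 (0.0571 and 0.118).

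The flavonoid genes DFR and UF3GT, which act late in anthocyanin synthesis, were higher among 5 measured. DFR had 228, 375 and 302 with ABA and 122, 138 and 168 in mock (0.98 ± 0.16, limma adjusted p = 0.00122), and UF3GT had 252, 276 and 192 against 126, 114 and 107 (0.95 ± 0.18). Of 12 autophagy and senescence genes 3 were higher and 0 lower by limma. Besides SAG29 they were ATG8H, with 1243, 995 and 1187 against 642, 629 and 582 (0.86 ± 0.12), and APG8A (0.53), which missed the threshold without rop10-1 ABA replicate 3 (0.0798). ATG8H and APG8A encode proteins that coat autophagosome membranes. Further ATG8-type genes, ATG8D (0.10), APG8H (0.10), ATG8F (0.02) and ATG8E (-0.12), were among the lowest of the list and were not called. Of 6 calmodulin-like calcium sensors 2 were called lower. CML30 had 131, 154 and 170 with ABA and 337, 332 and 338 in mock (-1.08 ± 0.16), and CML42 changed by -0.79. CML41, at 1.22, had an adjusted p of 0.0522, and CML43 was at 0.13.

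The light harvesting and photosystem list held 29 measured genes, 20 of them plastid-encoded and 9 nuclear (LHCB4.1, LHCB4.2 and LHCB4.3 among them). None of the 29 was called by limma, 2 having an unadjusted p under 0.05, and their log2 fold changes ran from -0.36 (psbA, adjusted p = 0.0578) to 0.22. Of 7 chlorophyll synthesis genes CHLM was called (-0.49), but not without the block (0.26) or without rop10-1 mock replicate 1 (0.209). All 66 tested plastid-encoded probe sets matched to the annotation, those 20 included, were uncalled by limma, with a range of -0.36 to 0.49 and 2 at an unadjusted p under 0.05, against 13.6% to 14.6% called on the 5 nuclear chromosomes. The list of ribosomal proteins (15 measured, 14 of them plastid-encoded), cell division (4), hypoxia (3), rapid stress and handling (3) and reference genes (5, from -0.17 to 0.19) also had no call by limma, with 1 ribosomal gene and 0 of the others at an unadjusted p under 0.05. With 15.6% of all tested probe sets called, lists of 3 to 5 genes can have no call without differing from the rest. The hypoxia genes AT3G10040 and AT4G10270 varied widely between arrays (SE 0.86 and 0.54), so a change in them could have been missed. The root hair expansins EXPA7 and EXPA18, markers of root tissue in the sample, had 0.19 and 0.23 and were not called. Of the guard cell markers, AT1G22690, with 773, 359 and 368 with ABA and 1754, 1148 and 1212 in mock, fell by 1.49 on the log2 scale, whereas FMA was not called; whether guard cell number moved with ABA was not tested.

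Neighbouring genes were described from the order of genes in the reference annotation. Of 3020 pairs of adjacent tested genes, 12 had both members called at 2-fold or more, 7 with both higher, 3 with both lower and 2 opposite. The pairs with both higher included BGLU24 with AT5G28520 and COR15B with COR15A. The 3 lower pairs were Prx37 with AT4G08780 (-2.37 and -2.01), both peroxidases, and the glutaredoxin run AT4G15680, AT4G15690 and AT4G15700 (-1.51, -1.97 and -1.13). AT4G39670 (1.58) and AT4G39675 (-2.54) lie side by side and changed in opposite directions. Whether the probe sets of such relatives read each other's transcripts was not tested.

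The response of rop10-1 was set against that of Ws by the difference of the 2 log2 fold changes in the same fit. By limma 0 of 15922 probe sets (0.0%) passed, and 803 (5.04%) had an unadjusted p under 0.05. The smallest adjusted p was 0.454, for DFR, with a log2 fold change of 0.98 in rop10-1 and 2.44 in Ws. Next among probe sets assigned to 1 gene were AT5G52890 (0.12 and -0.82), JAL23 (0.55 and 1.84), AT3G28220 (2.15 and 4.29) and UF3GT (0.95 and 2.17). Each had an adjusted p of 0.908 by limma. All 25 largest rises and all 25 largest falls in rop10-1 had the same direction and were called in Ws, and their own differences had limma adjusted p of 0.908 or more. An unadjusted p under 0.05 was seen for 3 of the 25 rises and 3 of the 25 falls. The change was larger in rop10-1 than in Ws for 15 of the rises and 22 of the falls. As these genes were picked by their rop10-1 values, such counts lean towards rop10-1. A p above the threshold does not show that the genotypes responded alike, and none of the changes above is shown to be particular to rop10-1.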

How the data were processed

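The deposited values are probe set intensities on a linear scale, made by the authors with GCOS 1.1.1 per the submitters' processing notes, with settings that those notes, as used here, leave unstated. Their equal trimmed means were read from the values, and they were used as deposited. Of 22810 probe sets 64 controls were left out, and 13513 have 1 gene in the platform annotation, 503 several and 8730 none; symbols were updated through RefSeq. The number of arrays limits the precision.

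From the deposited intensity, log2(signal + 16) was computed, 30% of probe sets, those of lowest mean log2 signal, were dropped, and limma 3.58.1 in R 4.3.3 was fitted to all 12 arrays with 4 group means, the replicate number as a fixed block and eBayes with an intensity trend, two-sided, at a Benjamini-Hochberg adjusted p under 0.05 over 15922 probe sets. "Called" means past that threshold. A ± value is the standard error of a log2 fold change. The numbers in the array titles were used to pair the arrays, and what a number stands for is not given in the labels. Residuals of same-numbered arrays correlated at 0.215 to 0.711 in all 18 pairs, against -0.475 to 0.11 for different numbers. These residuals were deviations from group means, which cancel within a group. Positive correlations for same numbers therefore push those for different numbers towards negative values, so the contrast is partly forced.

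Genes were named by rule: the 25 largest rises and 25 largest falls among called, single-gene probe sets with no overlap of the 3 and 3 arrays and 3 pairs in one direction, the 8 brightest at least 2-fold changed in each direction, list members, and the 5 smallest p of the difference between genotypes. The comparison, the members and the 56 gene lists were chosen with earlier results of these data known. Of the lists, 44 had a tested member. Some list members were dropped where their annotation showed another type of gene. On simulated data with 200 changed probe sets among 15922, 82% of 2-fold and 98.8% of 4-fold changes were recovered, and 3.32% of calls were false. The simulated noise was normal, independent between probe sets and drawn around the blocked fit, with changes of 2-fold or 4-fold only. As the data had 2486 calls, many of smaller changes, these rates need not hold for them. Alternatives were other pseudocounts, filters, normalizations, weights, blocks and sets of arrays.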

Additional observations from a re-analysis of the deposited data

How the results depend on the processing

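In none of the 27 alternatives did any of the 2486 calls it could fit change sign (0 in each). In the fits with no intensity trend, no block or a random block, the log2 fold change is the same by design. The same holds for the fit of the rop10-1 arrays alone and for those that left out a Ws array. It also holds for the fits that changed only which probe sets were kept. These were the fits with no low filter, with the lowest 50% left out and without probe sets marked as shared. A sign could not change in these fits, so they do not test it. Of the 2486 probe sets called (1291 higher, 1195 lower), 1041 were called with no replicate block (641 higher, 400 lower), and the count of at least 2-fold changes was 488 there. The other settings with all 12 arrays or the 6 rop10-1 arrays gave 2030 to 3024 calls. Leaving out 1 array at a time gave 1403 to 2538 calls, 826 to 1320 higher, 577 to 1220 lower and 567 to 742 of at least 2-fold; the total moved by over 1.5 times without rop10-1 mock replicate 1 (1403 calls, 826 higher, 577 lower), rop10-1 mock replicate 3 (1591, with 665 lower) and rop10-1 ABA replicate 3 (1574, with 669 lower), and the lower count also without rop10-1 mock replicate 2 (791). With all arrays of one number left out, an alternative chosen after seeing the data, calls were 1556 without number 1 (916 higher, 640 lower), 1441 without number 2 (830 higher, 611 lower) and 1128 without number 3 (724 higher, 404 lower). These fits hold fewer arrays, and the cause beyond that was not tested. The difference between genotypes had 0 calls by limma in each of these settings in which it was run. Of the 120 named genes that were called, 31 lost the call in at least 1 planned setting other than leaving out an array, 24 in at least 1 fit with an array left out and 34 in at least 1 fit with a number left out. A random block in place of the fixed one had an estimated correlation of 0.301.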
